A study of Mus musculus with 18 samples.

Results

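The genes of the major histocompatibility complex (MHC) and of antigen presentation were followed through single-cell RNA libraries of the mouse mammary gland. They were chosen by symbol, as every gene whose name begins with H2- together with B2m, Cd74, Tap1, Tap2, Tapbp, Psmb8, Psmb9, Ciita and Nlrc5, provided that 10 or more unique molecular identifiers (UMIs, counts of single captured RNA molecules) were found over the 18 libraries. Of 43 candidates, 34 passed, out of 31053 genes in the count tables, and 8 of the 9 that did not pass had no UMI at all. The 34 members comprised 23 genes of the class I pathway, 10 of the class II pathway and H2-Ke6, which bears the name of the locus but encodes a steroid dehydrogenase.

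The libraries were droplet-based 3′ UMI counts, each made from a cell suspension of pooled mice, and covered mammary development from the embryo to the gland after weaning. The FVB/NJ libraries were 3 of adults of 10 weeks (named A10, P7 and D12), 2 of pregnancy day 12.5 (H and G), 2 of pregnancy day 18.5 (F4 and B4), 2 of lactating dams 10 days after birth (F11 and D6) and 1 post-involution library (3 weeks, counted from birth in the sample labels and from weaning in the study's text). C57BL/6 mice gave 1 library each of E18.5 mammary rudiment, E18.5 skin, postnatal day 5, pre-puberty at 2.5 weeks, terminal end buds (TEB) and ducts at puberty (5 weeks) and adult gland (10 weeks), and outbred SWISS mice gave 1 adult library of 10 weeks. The embryonic mice carried an Lgr5-GFP allele and the pubertal mice an E-cadherin-GFP allele, the adult mice were not staged for the estrous cycle, and cells bearing endothelial, leukocyte or red cell surface markers had been depleted by sorting in the study, so that immune cells were those that escaped the sort.

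Cells were placed in classes from 10 marker genes each: basal (myoepithelial, Krt5 and Acta2 among the markers), LP/alveolar (luminal progenitors, Kit and Elf5, and the milk-producing alveolar cells of pregnancy and lactation) and mature luminal (ML, the hormone-sensing cells, Esr1 and Pgr), with fibroblast, endothelial, mural, immune, epidermal and erythroid cells apart. Of 149371 barcodes, 132599 passed the quality limits and 116659 of these (88.0%) received a class. Library totals ran from 9920346 UMIs in adult P7 to 93234616 in lactation D6, and the median per cell from 2498 in P7 to 21609 in the TEB library. P7 also differed in having barcodes of 14 rather than 16 bases. Barcode sequences were shared by 115 of the 153 pairs of libraries, at most 239 in a pair, or 2.41% of the smaller library. Levels are CPM, UMI counts scaled to a common total within the library and class, and a class was used in a library where it held 20 or more cells.

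MHC class I molecules display peptides from the cell's own proteins to CD8 T cells and natural killer cells. Their heavy chains need the light chain B2m, the immunoproteasome subunits Psmb8 and Psmb9 cut the peptides, Tap1 and Tap2 carry them into the endoplasmic reticulum, and Tapbp (tapasin) bridges the transporter to the empty class I molecule. Nlrc5 is the transactivator of these genes, and interferons are their best-known inducers. Class II molecules display ingested material to CD4 T cells and are typical of B cells, dendritic cells and macrophages. There Cd74, the invariant chain, guards the groove of the alpha and beta chains (H2-Aa with H2-Ab1, and H2-Eb1), H2-DMa and H2-DMb1 exchange the peptide, H2-Oa and H2-Ob modulate that exchange, and Ciita is the transactivator.

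Some members were too rare for the stage tests within an epithelial class. H2-T3, H2-M5, H2-T24, H2-Ob and H2-M2 had between 57 and 180 UMIs in all libraries and were tested in none of the 3 epithelial classes across stages. H2-Ob did enter the fit that set the ML change against the LP/alveolar change, and was not called there. H2-M2 and H2-Ob were highest in the immune cells of adult C57BL/6, at 135 CPM (14 UMIs) and 106 CPM (11 UMIs).

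In the GENCODE vM21 annotation of GRCm38, 30 of the 34 members lay on chromosome 17 between 33915899 and 37483552, a stretch of 3.57 Mb, and B2m, the light chain gene, lay on chromosome 2. Promoters of 27 of the 34 members could be matched by symbol in the RefSeq table of GRCm38.p6. The 250 bases before the start follow for B2m and the classical heavy chains H2-K1 and H2-D1, of which B2m differed in direction from H2-K1 and H2-D1 in the test between lineages, and for H2-Aa, the class II alpha chain. Capitals mark matches on either strand to CCAAT, to TGACG (the core of cAMP-response and X2-box elements) and to GAANNGAAA. The last is a single spelling of an interferon-stimulated response element core, and other spellings were not searched. The windows are chr2:122147437-122147686 on the plus strand for B2m, chr17:34000334-34000583 on the minus strand for H2-K1, chr17:35262844-35263093 on the plus strand for H2-D1 and chr17:34287824-34288073 on the minus strand for H2-Aa.
B2m: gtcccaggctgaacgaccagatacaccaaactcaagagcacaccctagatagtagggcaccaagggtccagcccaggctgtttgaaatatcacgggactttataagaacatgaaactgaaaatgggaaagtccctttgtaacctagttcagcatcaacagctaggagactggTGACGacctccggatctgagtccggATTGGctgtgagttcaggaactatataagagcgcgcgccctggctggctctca
H2-K1: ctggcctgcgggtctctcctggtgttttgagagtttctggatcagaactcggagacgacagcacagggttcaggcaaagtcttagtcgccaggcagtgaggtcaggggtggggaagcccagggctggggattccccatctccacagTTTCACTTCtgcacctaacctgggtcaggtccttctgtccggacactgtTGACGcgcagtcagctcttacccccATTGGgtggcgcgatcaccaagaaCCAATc
H2-D1: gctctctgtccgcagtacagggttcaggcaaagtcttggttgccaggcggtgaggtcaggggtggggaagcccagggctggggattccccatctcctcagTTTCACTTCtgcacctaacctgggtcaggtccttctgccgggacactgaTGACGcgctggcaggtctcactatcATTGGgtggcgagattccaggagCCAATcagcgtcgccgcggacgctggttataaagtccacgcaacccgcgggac
H2-Aa: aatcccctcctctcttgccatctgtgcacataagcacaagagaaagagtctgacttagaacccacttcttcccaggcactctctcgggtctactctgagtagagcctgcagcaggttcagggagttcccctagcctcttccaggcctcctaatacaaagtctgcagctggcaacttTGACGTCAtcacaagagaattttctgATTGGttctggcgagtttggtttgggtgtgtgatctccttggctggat
H2-K1 and H2-D1 held all 3 motifs in these windows, and B2m and H2-Aa held CCAAT and TGACG without a match to GAANNGAAA as spelled. The B2m window does hold gaaactgaaa, which has a further a before the free bases and so falls outside that spelling. The counts of GAANNGAAA below have the same limit. Among the 300-base promoters of the class I pathway that were matched, 15 of 19 held CCAAT, 10 held TGACG and 8 held GAANNGAAA. Among the 7 class II promoters matched, 7 held CCAAT, 1 held TGACG and 0 held GAANNGAAA. Over all 32851 promoters of 300 bases in the table, the shares were 37.4%, 20.8% and 7.52%. A match is a description of letters in the window and not a bound site.

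In the adult FVB/NJ gland, most genes of the class I pathway were higher in ML cells than in basal or LP/alveolar cells. B2m, the light chain, stood at 996, 1237 and 1060 CPM in the ML cells of A10, P7 and D12, against 429, 514 and 383 CPM in LP/alveolar cells and 350, 447 and 537 CPM in basal cells. Every ML value of B2m lay above every value of the other classes, whereas LP/alveolar and basal values overlapped. Psmb9, the immunoproteasome subunit, stood at 101, 168 and 62.4 CPM in ML cells, 22.98, 40.6 and 19.3 CPM in LP/alveolar cells and 8.99, 13.9 and 15.8 CPM in basal cells, and the 3 classes did not overlap.

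The test between classes used the library as a block, since the classes of a library share its mice and depth. Of 26 members tested between ML and basal cells, 18 were higher and 3 lower in ML cells, where 49.0% of all genes tested were called (23.7% higher and 25.3% lower). The class I pathway gave 15 higher and 0 lower of 17, with a median log2 difference of 1.33 against -0.00 over all genes. Among its chains, B2m was higher by 1.38 ± 0.18 on the log2 scale (SE, n = 3 libraries, higher in 3 of 3, edgeR adjusted p = 1.93e-04), H2-K1 by 0.93 and H2-D1 by 1.29. Among the genes of peptide supply, Psmb9 was higher by 3.04 ± 0.30 (adjusted p = 5.12e-05), Psmb8 by 2.86, Tap2 by 2.50, Tap1 by 0.90 and Tapbp by 0.72. Nlrc5, the transactivator, differed by -0.06 and was not called. Class II members split: the exchange factors H2-DMa (2.43) and H2-DMb1 (1.79) were higher in ML cells, while Cd74 (-4.34 ± 0.73), H2-Aa (-2.68) and H2-Ab1 (-2.13) were lower.

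Between LP/alveolar and basal cells, 8 members were higher and 3 lower in LP/alveolar cells, where 34.9% of all genes were called (16.4% higher and 18.5% lower). Psmb8 was higher in LP/alveolar cells by 1.31 ± 0.30 on the log2 scale (edgeR adjusted p = 0.00776), Psmb9 by 1.18, Tap2 by 1.36, H2-T23 (the chain of Qa-1, a ligand of natural killer cell receptors) by 1.0 and the non-classical chain H2-Q2 by 3.28. H2-M3, which presents formylated peptides, was lower by 1.02 (log2 difference -1.02), Nlrc5 by 1.71 (-1.71) and Cd74 by 2.21 (-2.21), although Cd74 was lower in only 2 of 3 libraries. H2-Oa was found in LP/alveolar cells at 2.71, 10.7 and 1.58 CPM and was at 0.16 CPM in 1 basal library and 0 in the other 2, and at 0.10 CPM in 1 ML library and 0 in the other 2. It passed the low-count filter through LP/alveolar cells alone, and without it 7 members were higher and 3 lower. Between ML and LP/alveolar cells 14 members were higher and, H2-Oa aside, 0 lower in ML cells, where 30.0% of all genes were called (15.1% higher and 15% lower). Of the 17 class I members tested, 12 were higher in ML than in LP/alveolar cells. The LP/alveolar against basal count was 3 without A10 and 5 without P7, and the ML against LP/alveolar count was 4 without A10 and 7 without P7. Without TMM scaling, the normalization that sets the bulk of the genes equal, the LP/alveolar against basal split was 6 higher and 4 lower.

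**Figure D1:**
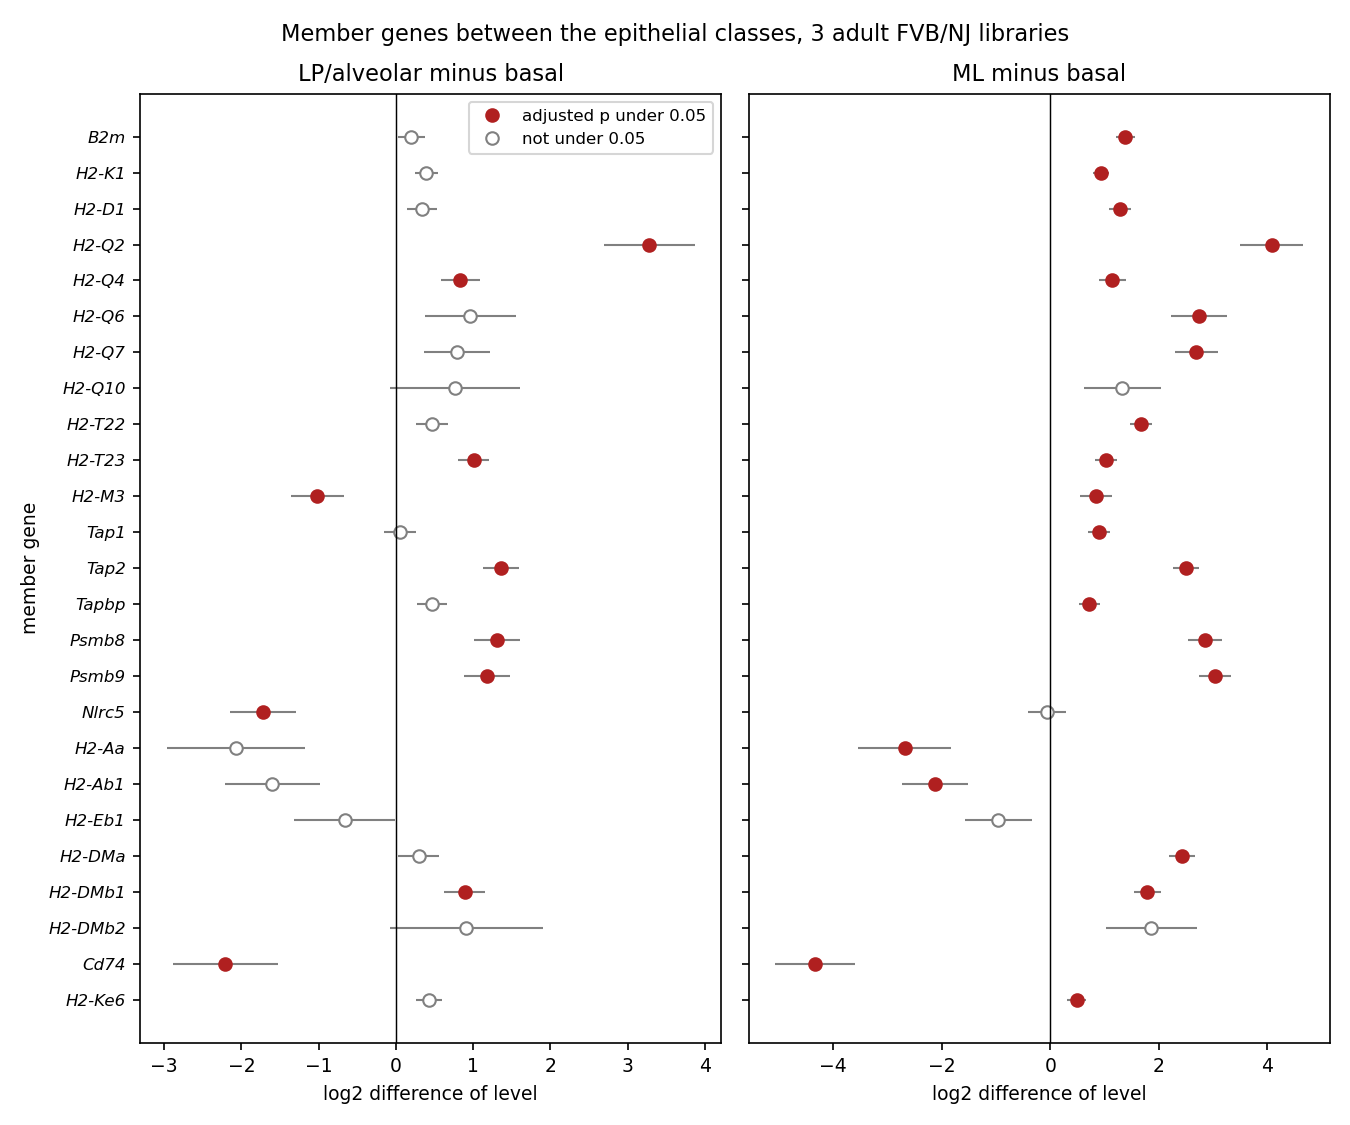
Log2 differences of level (x axes) for 25 members (y axis) between LP/alveolar and basal cells (left) and between ML and basal cells (right) in the 3 adult FVB/NJ libraries. Points are edgeR estimates, bars 1 SE, and filled points have an adjusted p under 0.05; H2-Oa, with 3 or fewer UMIs in a class, is not drawn. The 15 class I members called lie to the right of 0 in the ML panel, while Cd74, H2-Aa and H2-Ab1 lie to the left.

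At pregnancy day 12.5 genes of the class I pathway rose in the secretory lineage and fell in the hormone-sensing lineage, with B2m rising in both. In LP/alveolar cells, Tap1 rose from 9.82, 17.8 and 14.6 CPM in the adult libraries to 30.3 and 31.1 CPM in H and G. Psmb9 rose in the same cells from 22.98, 40.6 and 19.3 CPM to 61.4 and 62.2 CPM, and B2m from 429, 514 and 383 CPM to 1113 and 1081 CPM. For these 3 genes both pregnancy libraries lay above all 3 adult libraries. H2-K1 stood at 409, 979 and 401 CPM in adults and 1039 and 1111 CPM in pregnancy, with P7 close to the pregnant range.

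Of the 28 members tested in LP/alveolar cells, 7 were higher and 1 lower at day 12.5, where 11.5% of all genes were called (5.58% higher and 5.96% lower). Tap1 rose by 1.51 ± 0.25 on the log2 scale (SE, n = 2 and 3 libraries, edgeR adjusted p = 0.00741), Psmb9 by 1.53 ± 0.30 (0.0148), B2m by 1.65 ± 0.42 (0.0367) and Nlrc5 by 1.72 ± 0.48 (0.0465). Among the non-classical chains H2-Q6 rose by 3.21 ± 0.47 and H2-Q10, a secreted chain best known from liver, by 3.64 ± 0.99. Their adult levels were low, at 0.99 to 2.08 CPM for H2-Q6 and 0.06 to 1.78 CPM for H2-Q10, as were those of Nlrc5, at 0.45 to 0.99 CPM. The class I median was 1.10 against 0.04 over all genes tested. In class II, H2-Aa rose by 2.49 ± 0.47, from adult levels between 0.20 and 0.45 CPM to levels of 1.95 and 1.34 CPM. H2-DMb1 fell by 2.63 on the log2 scale (SE 0.64). The count of 8 was 0 without H, 1 without G, 4 without either F4 or B4 and 16 without P7. Without TMM scaling the split was 4 higher and 3 lower, and DESeq2 gave 9 higher and 5 lower. Milk transcripts took 0.23 to 3.80% of the LP/alveolar UMIs in adults and 13.9 and 14.8% at day 12.5.

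In ML cells genes of peptide supply and several heavy chains fell while the light chain rose. Psmb9 fell in ML cells from 101, 168 and 62.4 CPM to 16.9 and 7.79 CPM, which were 10 and 6 UMIs. Psmb8 fell from 320, 908 and 200 CPM to 62.7 and 55.8 CPM, and Tap2 from 120, 607 and 73.2 CPM to 27.1 and 15.6 CPM. In each of these 3 genes the pregnancy libraries lay below all adult libraries. B2m rose in the same cells from 996, 1237 and 1060 CPM to 8291 and 7272 CPM, or from 4.21 to 9.48 UMIs per cell in adults to 36.3 and 31.8 UMIs per cell.

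Of the 18 members tested in ML cells, 1 was higher and 6 lower, where 5.27% of all genes were called (3.16% higher and 2.12% lower). B2m rose by 2.79 ± 0.54 on the log2 scale (edgeR adjusted p = 0.0180). Psmb9 fell by 3.19 on the log2 scale (SE 0.66, 0.0236), Psmb8 by 2.96 (log2 change -2.96, SE 0.61), Tap2 by 3.57 (-3.57, SE 0.86), H2-T23 by 3.97 (-3.97), H2-Q2 by 2.87 (-2.87) and H2-T22, a chain recognized by some gamma-delta T cells, by 2.72 (-2.72). The class I median was -2.05 against -0.09 over all genes tested. The fall was read from few cells: ML cells numbered 135 and 176 in H and G against 886 to 2875 in the adult libraries, and a pregnancy ML cell held a median of 6 of the 10 ML markers. The count of 7 was 13 without P7, 11 without A10, 3 without F4, 2 without B4 and 0 when H or G was left out, and it was 2 with a gate asking for a lead of 4 markers.

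The difference between the lineages was tested directly, as the change in ML cells minus the change in LP/alveolar cells from adult to pregnancy day 12.5, with the library as a block. It was past the threshold for 14 of 28 members, 13 of them more negative in ML cells, where 15.3% of all genes were called (7.31% more positive and 8.0% more negative). Psmb9 differed by -4.69 ± 0.37 on the log2 scale (edgeR adjusted p = 1.48e-09), Psmb8 by -3.81 ± 0.27, Tap1 by -3.36 ± 0.44, Tap2 by -3.03 ± 0.36, H2-K1 by -2.49 ± 0.20 and H2-D1 by -2.25 ± 0.22. B2m alone of the members called was more positive in ML cells, by 1.17 ± 0.18 (adjusted p = 6.48e-05). The class I median of these differences was -2.39 against -0.16 over all genes. The count stayed between 10 and 14 when each library in turn was left out, and without TMM scaling 11 members were more negative and 2 more positive.

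**Figure D2:**
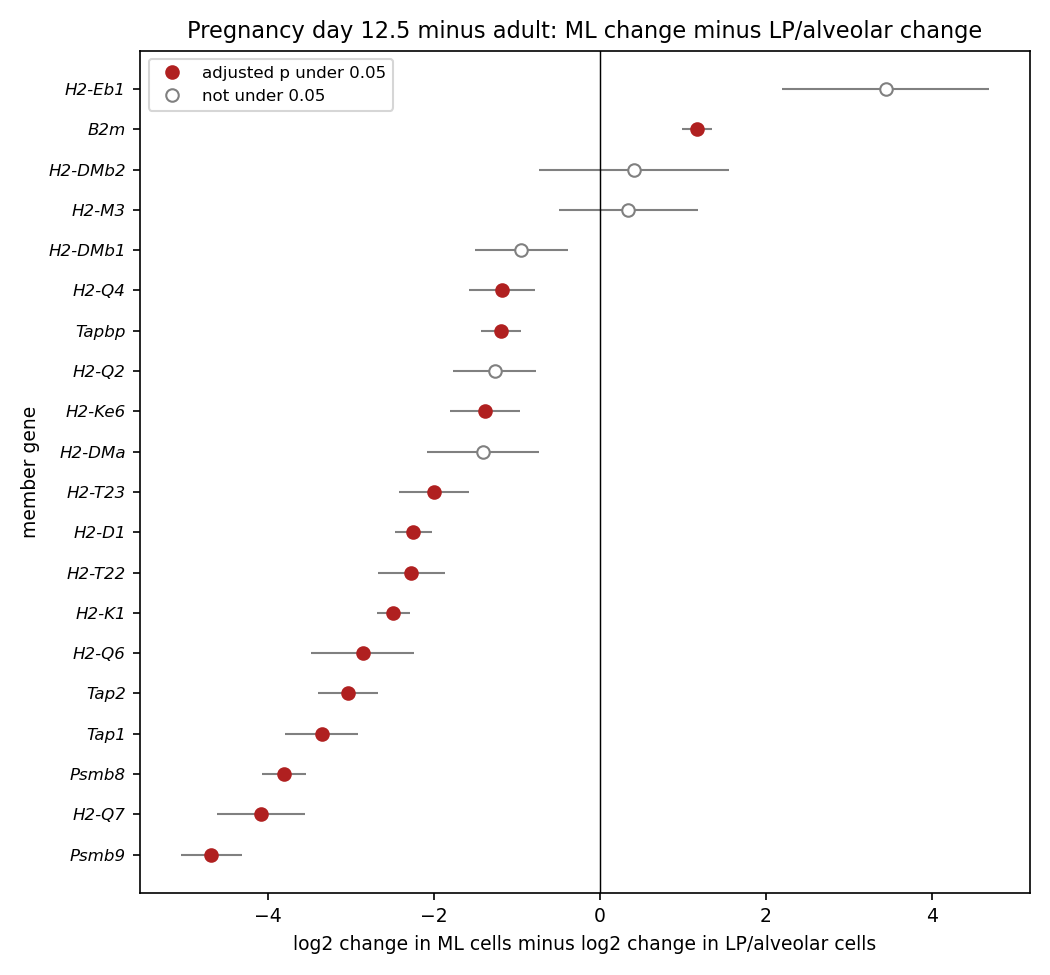
The log2 change from adult to pregnancy day 12.5 in ML cells minus that in LP/alveolar cells (x axis) for the 20 members with more than 3 UMIs in each class and stage (y axis). Points are edgeR estimates with bars of 1 SE, filled where the adjusted p is under 0.05. Psmb9 at -4.69 and B2m at 1.17 mark the ends of the called values.

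From day 12.5 to day 18.5 few members were called. In LP/alveolar cells 1 member, H2-Q1, rose, by 4.77 ± 0.68 on the log2 scale (edgeR adjusted p = 0.0208), where 0.829% of all genes were called (0.694% higher and 0.136% lower). H2-Q1 had 17 UMIs in these cells at day 12.5 and passed the low-count filter through the later stages, so its call is not read as a result. It was not called without H, G or B4, the count was 4 without P7, 2 without D12, and the split was 1 higher and 1 lower without TMM scaling. In the same cells at day 18.5 Psmb9 stood at 13.0 and 14.0 CPM, Psmb8 at 102 and 94.4 CPM and Tap1 at 11.8 and 11.9 CPM, all below the day 12.5 values but not past the adjusted threshold. In ML cells B2m stood at 6087 and 5614 CPM and edgeR and DESeq2 both called 0 of 18 members, edgeR called 0% of all genes, and the unadjusted p of 3 members was under 0.05. The ML change of B2m was lower than the LP/alveolar change over this interval by 0.86 (log2 difference -0.86 ± 0.20), where 2.47% of all genes were called (0.569% more positive and 1.90% more negative), although leaving out H, G, F4 or B4 ended this call. The count of members in that test was 2 without A10 and 3 without P7 or D12, and the split was 8 higher and 0 lower without TMM scaling.

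In basal cells pregnancy brought no called change among the 26 members tested. At day 12.5 edgeR called 0, where 1.75% of all genes were called (0.797% higher and 0.948% lower), DESeq2 called 2, and the unadjusted p was under 0.05 for 5 members. Without A10 or without P7 the edgeR count was 2. B2m stood at 763 and 631 CPM in basal cells of H and G and H2-K1 at 686 and 607 CPM, the latter within the adult range of 310 to 835 CPM. Between day 12.5 and day 18.5 edgeR and DESeq2 again called 0 members, where 0.00759% of all genes were called, and 4 had an unadjusted p under 0.05. The LP/alveolar change at day 12.5 was not past the threshold against the basal change for any member, where 8.44% of all genes were (3.02% more positive and 5.42% more negative); 8 members had an unadjusted p under 0.05, and DESeq2 was not run on that contrast. The count of 0 in that test became 3 without F11, 2 without A10, D12 or D6, and 1 without F4 or B4. For the change from day 12.5 to day 18.5 it was again 0, where 1.93% of all genes were called (1.37% and 0.558%), with 4 at an unadjusted p under 0.05, and it was 3 without D12.

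**Figure D3:**
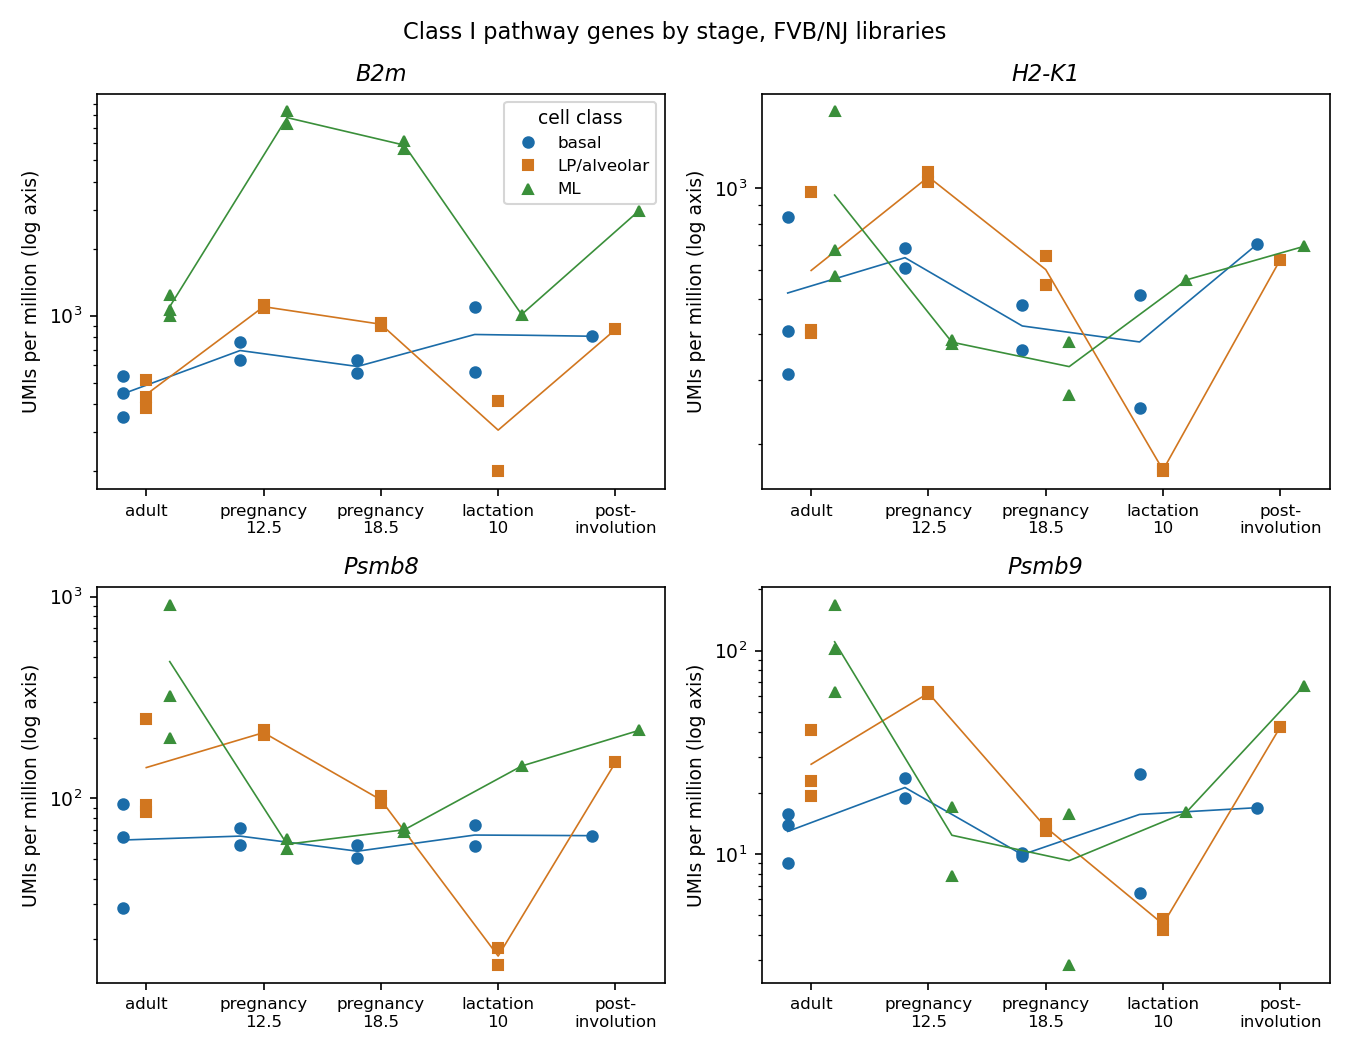
CPM (log y axis) of B2m, H2-K1, Psmb8 and Psmb9 at the 5 FVB/NJ stages (x axis) in basal, LP/alveolar and ML cells. Each point is 1 library and each line joins the stage means; lactation ML cells come from D6 alone and post-involution is 1 library. B2m in ML cells is highest at pregnancy day 12.5, at 8291 and 7272 CPM, while Psmb8 and Psmb9 in ML cells are lower there than in any adult library.

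In the LP/alveolar cells of lactation, milk transcripts took 75.3 and 75.6% of all UMIs, against 34.6 and 35.7% at day 18.5. The scale therefore matters for every class I value in these cells. H2-K1 stood at 169 and 171 CPM in F11 and D6, below the 654 and 545 CPM of day 18.5. With 8 milk genes (caseins, Wap, Lalba and Glycam1) left out of the total it stood at 683 and 702 CPM in lactation and 1000 and 848 CPM at day 18.5, lower in lactation on both scales and by less on the second. Psmb8 stood at 18.1 and 14.97 CPM, or 73.4 and 61.4 outside the milk genes, and Tap1 at 1.71 and 1.62 CPM, or 6.92 and 6.63 outside them. B2m stood at 411 and 199 CPM, or 1668 and 818 outside them, against 1380 and 1442 outside them at day 18.5.

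With TMM scaling 4 members rose and 1 fell in LP/alveolar cells from day 18.5 to lactation, where 4.94% of all genes were called (3.88% higher and 1.06% lower). Tap1 fell by 1.28 on the log2 scale (SE 0.28, edgeR adjusted p = 0.0306). H2-Q1 rose by 5.00 ± 0.63 (0.00274), and the class I median was -0.04 against -0.01 over all genes. Without TMM scaling 4 members rose and 11 fell, and the median of all genes was -1.57. The count of 5 was 1 without F4, 2 without B4 and 8 without P7.

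Against the adult libraries, 9 members were called higher and 2 lower in lactating LP/alveolar cells, where 26.2% of all genes were called (15% higher and 11.1% lower). One of the 9, H2-Q1, had 2 UMIs in the adults and passed the low-count filter through the later stages, so that 8 members rose beside it. B2m rose by 1.82 ± 0.43 on the log2 scale (edgeR adjusted p = 0.0123), H2-Q6 by 3.80 ± 0.47, H2-Q7 by 2.76 ± 0.59 and H2-Q10 by 4.33 ± 0.98. In class II, H2-Eb1 rose by 2.28 ± 0.69 (0.0363), beside Cd74, H2-Aa and H2-Ab1. H2-T22 fell by 1.16 on the log2 scale (SE 0.30) and H2-Oa by 3.71 (-3.71, SE 1.15). The class I median was -0.20 against -0.02 over all genes. Without TMM scaling 5 members rose and 16 fell, the median of all genes was -2.37, B2m turned to -0.53 and H2-Eb1 to -0.013. Compared with the basal change over the same interval, the change of 3 members differed in LP/alveolar cells, where 16.7% of all genes differed (9.43% more positive and 7.29% more negative): Psmb8 by -1.20 ± 0.35, H2-T23 by -1.46 ± 0.23 and H2-DMa by -2.68 ± 0.61 on the log2 scale, all more negative in LP/alveolar cells. From day 18.5 it was 1 member, Psmb8 (-1.58 ± 0.38), where 3.12% of all genes were called (2.22% more positive and 0.891% more negative). Neither count is read as a result about the members as a set. Without TMM scaling 16 members were more negative in both comparisons. The median of all genes was then -1.86 against adults and -1.17 against day 18.5, beside -2.49 and -2.02 for the members. The first count was 1 without D6 and 5 without D12, and the second was 0 without any one of P7, H, G, F4, B4 and D6. Without the cells holding 2 or more of the 10 immune markers, only H2-T23 (-1.44) was called of the 3. Psmb8 was then at -1.10 (edgeR adjusted p = 0.0598) and H2-DMa at -0.91 (0.362), and Psmb8 from day 18.5 was at -1.49 (0.0688), and at -1.65 (0.0822) with classes taken from clusters, so that its calls were lost at nearly the same differences.

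ML cells of lactation came from D6 alone, with 32 cells, so the fits take its spread from the other stages and their counts do not bear on whether members differed in ML cells of lactation. B2m stood there at 1012 CPM (63 UMIs), within the adult range of 996 to 1237 CPM, and Psmb8 at 145 CPM. Against day 18.5, edgeR called 0 of 18 members, as it called 0% of all genes, DESeq2 called 1, and for 2 members the unadjusted p was under 0.05. Against adults edgeR and DESeq2 called 0, where 0.364% of all genes were called (0.332% higher and 0.0321% lower), and 5 members had an unadjusted p under 0.05.

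H2-Q1, a class I gene of the Q region, was near 0 in adult epithelium and reached its highest levels in lactation. Its LP/alveolar level was 0.06, 0 and 0.20 CPM in adult A10, P7 and D12, 0.21 and 0.25 CPM at day 12.5, 2.42 and 6.60 CPM at day 18.5 (98 and 189 UMIs) and 30.2 and 68.0 CPM in lactation (1099 and 5169 UMIs). Outside the milk genes the lactation levels were 123 and 279 CPM. Both day 18.5 libraries lay above all earlier libraries and both lactation libraries above day 18.5, and the post-involution library stood at 0.62 CPM. In lactation H2-Q1 was also found in basal cells (20.9 and 9.57 CPM), in the 32 ML cells of D6 (64.3 CPM), in fibroblasts of D6 (6.62 CPM), in immune cells of D6 (5.24 CPM) and in endothelial cells (0 and 3.87 CPM). How much of this was free RNA from the secretory cells was not tested. Outside LP/alveolar cells the levels rest on few counts. The ML class of D6 held 62257 UMIs of all genes, and H2-Q1 had 5 UMIs in the immune and 10 in the basal cells of D6. H2-Q genes are related in sequence, to differing degrees, and how reads were split among them was not examined.

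In basal cells the lactation changes were mostly in class II. Milk transcripts took 34.2 and 9.23% of the basal UMIs in F11 and D6, against 3.65 and 2.19% in F4 and B4 at day 18.5. The CPM values of lactation basal cells are shares of totals that include them, and how much was free RNA from secretory cells was not tested. From day 18.5 to lactation 5 of 26 members rose and 0 fell, where 1.79% of all genes were called (1.60% higher and 0.190% lower): H2-Q1, and 4 of the 7 class II members tested. H2-Q1 had 7 UMIs in the basal cells of day 18.5 and 23 in those of lactation. It passed the low-count filter through lactation, so its call is not read as a result. Cd74 rose from 7.11 and 9.98 CPM to 167 and 1012 CPM in F11 and D6, by 6.26 ± 1.24 on the log2 scale (edgeR adjusted p = 0.0270). H2-Aa rose from 0.95 and 1.64 CPM to 86.9 and 533 CPM, H2-Ab1 from 1.91 and 1.43 CPM to 65.9 and 293 CPM, and H2-DMa from 2.76 and 2.63 CPM to 6.43 and 40.2 CPM. All lactation values of these genes lay above all other FVB/NJ basal values, by a wide margin in D6 and, for H2-DMa in F11, narrowly above the 6.03 CPM of P7. H2-Eb1, the I-E beta chain, was at 0 and 14.4 CPM, and was not called. The count was 0 without any one of F4, B4 and D6. Against adults 7 members were called higher and 0 lower, where 4.57% of all genes were called (3.45% higher and 1.12% lower), with a class II median of 4.18 against -0.13 over all genes. That count was 3 without D6. Its class I members were H2-Q6, which rose by 3.1 ± 0.67, and H2-Q1 and H2-M9, which had 1 and 0 UMIs in the adult basal cells. Both passed the low-count filter through the other stages, so their calls are not read as results, and 5 members rose beside them. H2-M9 stood at 14.5 and 1.91 CPM in F11 and D6 (9 and 2 UMIs).

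Markers of immune cells moved with this rise. The sum of the 10 immune markers in basal cells was 396 CPM in D6 and 77.2 CPM in F11, against 2.37 to 17.5 CPM in the other libraries. In D6, 998 of 1058 basal Cd74 UMIs came from 50 of 406 cells with 5 or more of them, and these cells held a median of 4 immune markers. In F11, 91 of 104 came from 6 of 317 cells, with a median of 2.5 immune markers. Without the cells holding 2 or more immune markers the basal Cd74 level was 100 CPM in D6 and 46.0 CPM in F11, still above the 2.65 to 16.2 CPM of A10 and of the pregnancy libraries with F11 between and D6 above the 40.3 and 69.3 CPM of adult P7 and D12. The count of members called fell to 2 from day 18.5 and to 4 from adult without these cells. Whether they were doublets, immune cells that took up basal RNA, or basal cells was not tested.

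Class II members also rose in LP/alveolar cells. Cd74 went there from 2.66 and 3.63 CPM at day 18.5 to 31.6 and 9.09 CPM in F11 and D6, by 4.22 ± 0.54 on the log2 scale (edgeR adjusted p = 0.00301), H2-Aa by 5.19 ± 0.43 and H2-Ab1 by 5.67 ± 0.69. In F11, 963 of 1148 Cd74 UMIs lay in 24 of 3916 cells with a median of 3 immune markers, and in D6, 226 of 691 lay in 14 of 4300 cells. Immune markers are a poorer guide in this class: the sum of the 10 was 54.9 and 62.1 CPM in F11 and D6 against 8.47 to 482 CPM in the other libraries, most of it Cytip and Lcp1, while the other 8 markers summed to 8.01 and 5.60 CPM against 0 to 1.92 CPM. Leaving out the cells with 2 or more immune markers took 116 of 3916 cells from F11 and 382 of 4300 from D6, but also 454 of 5899 and 525 of 2373 cells from F4 and B4. The Cd74 levels of F11 and D6 were then 6.71 and 6.03 CPM. These 3 class II members were still among 4 called higher in that comparison without those cells. Endothelial cells of the 2 lactation libraries held Cd74 at 576 and 338 CPM, and at 107 and 48.4 CPM without the cells so marked.

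Immune cells themselves were found in number in 3 libraries: 54 in adult C57BL/6, 60 in adult SWISS and 295 in lactation D6. Their Cd74 level was 7842, 5119 and 24381 CPM, and the immune to basal ratio within the library was 298, 160 and 24.1. The D6 ratio divides by a basal level of 1012 CPM, most of it in the immune-marked basal cells described above. Without those cells the basal level was lower and the ratio would be higher. In SWISS all 569 Cd74 UMIs lay in 9 of the 60 cells, against 31 of 54 cells with a Cd74 UMI in C57BL/6 and 286 of 295 in D6, so that the SWISS level and ratio are those of a few cells. H2-Aa stood at 3367, 2780 and 9359 CPM and H2-Eb1 at 3318, 2411 and 292 CPM, so that D6 was highest in the I-A chain and lowest in H2-Eb1. The 3 samples of immune cells differed in type: 285 of the 295 in D6 (96.6%) held 2 or more macrophage markers, 44 of 60 in SWISS held 2 or more T cell markers, and C57BL/6 had 17 with T, 16 with B and 7 with macrophage markers.

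In a fit over these 3 libraries with the library as a block, chosen after the data were seen, 21 of 27 members were called higher and 0 lower in immune than in basal cells, where 16.2% of all genes were called (6.80% higher and 9.42% lower). H2-M2, H2-Oa and H2-Ob, with 1 or 2 UMIs in the basal cells of the 3 libraries, passed the low-count filter through the immune cells and are left out of what follows. The basal cells of D6 in this fit included the immune-marked ones. Of the other 24 members 18 were higher, among them all 8 of class II. Several of these 8 were low in basal cells and may have passed the low-count filter through the immune cells. Basal Ciita stood at 0.63 CPM in C57BL/6 and 4.78 CPM in D6, and basal H2-DMa at 2.69, 3.48 and 40.2 CPM in C57BL/6, SWISS and D6. The count of 8 is therefore not read as a result. Cd74 was higher by 6.80 ± 0.75 on the log2 scale (edgeR adjusted p = 0.00196), H2-Ab1 by 6.85 ± 0.87, H2-DMa by 5.72 ± 0.60 and Ciita by 4.25 ± 0.79. Of 15 class I members 10 were higher, among them B2m by 2.25 ± 0.41 (not called without C57BL/6 or without SWISS, adjusted p = 0.144 and 0.102), Psmb8 by 2.50 ± 0.41 and Psmb9 by 2.81 ± 0.47. The 5 class I members not called were Tap1, Tap2, Tapbp, Nlrc5 and H2-Q4.

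Cd74 was higher in basal than in LP/alveolar cells in 16 of the 17 libraries with both classes, A10 being the exception, and higher than in ML cells in 15 of 15. Basal Cd74 was 0.46 CPM in TEB, 2.33 to 7.69 CPM in the other libraries before adulthood, 2.65, 40.3 and 69.3 CPM in adult FVB/NJ, 26.3 CPM in adult C57BL/6 and 32.0 CPM in adult SWISS. It was 0.17 to 8.36 CPM in LP/alveolar cells and 0 to 2.62 CPM in ML cells in the libraries outside lactation. In D12, where the level was highest, 19.9% of basal cells held a Cd74 UMI (median depth 4514.5 UMIs), against 1.74% of LP/alveolar cells (3813 UMIs) and 2.06% of ML cells (8404.5 UMIs). With each cell thinned to 2000 UMIs, which kept 2393 of 2498 basal, 1085 of 1148 LP/alveolar and 1044 of 1066 ML cells, the shares were 9.84%, 0.912% and 0.582%. The 18 basal cells with 5 or more had a median of 0 immune markers. H2-Aa stood at 2.45 CPM and H2-Ab1 at 5.38 CPM in basal cells of D12, between 0.62 and 0.47 CPM in A10 and 7.53 and 8.29 CPM in P7. In SWISS basal cells H2-Ab1 stood at 22.6 CPM beside H2-Aa at 1.83 CPM, above the 0.47 to 8.29 CPM of the adult FVB/NJ libraries. Ciita was between 0 and 1.83 CPM in basal cells of every library but D6, where it was 4.78 CPM.

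**Figure D4:**
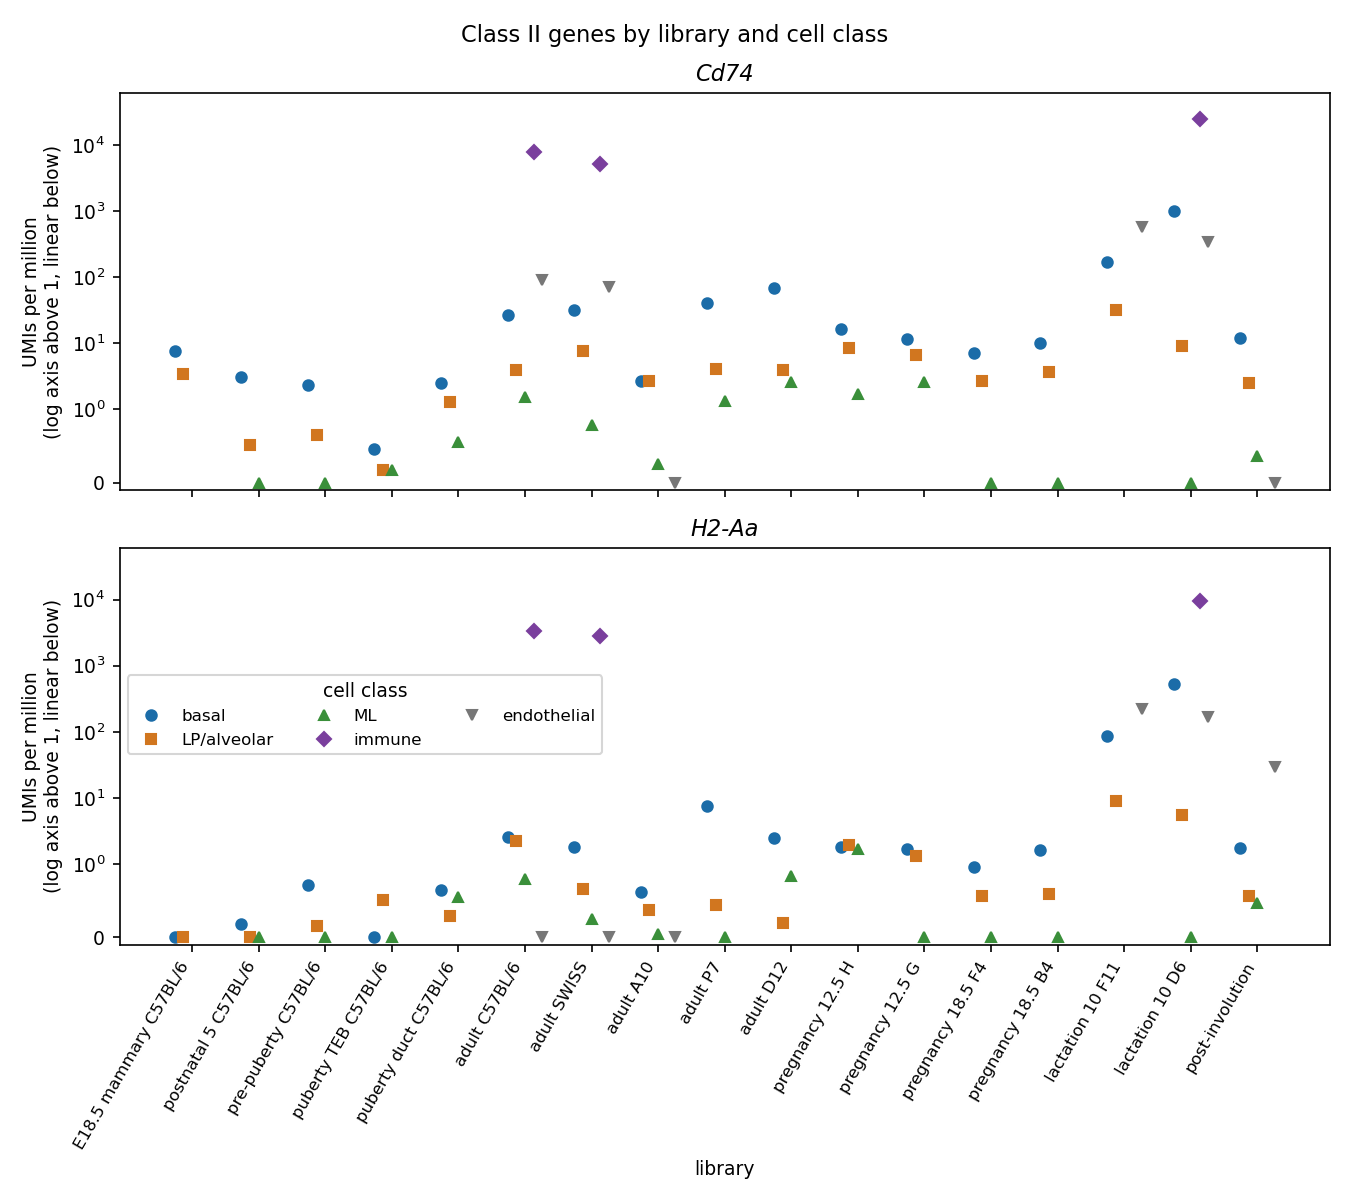
CPM of Cd74 (top) and H2-Aa (bottom) in each library (x axis) by cell class, with a y axis that is logarithmic above 1 and linear below. Each point is 1 class of 1 library with 20 or more cells. Immune cells lie at 5119 to 24381 CPM of Cd74, and the basal points are highest in lactation, at 167 and 1012 CPM.

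Across the C57BL/6 ages, each a single library with no replicate, H2-K1, H2-D1 and Psmb8 were lowest at E18.5 in basal and LP/alveolar cells. H2-K1 in basal cells stood at 15.1 CPM at E18.5 (95% exact Poisson interval 12.3 to 18.3, counting error only), 53.6 CPM at postnatal day 5, 185 CPM before puberty, 90.7 and 176 CPM in TEB and ducts and 589 CPM in the adult (576 to 603). In LP/alveolar cells it stood at 25.7 CPM at E18.5 and 407 CPM (387 to 427) at postnatal day 5, then at 399, 352, 298 and 662 CPM. Psmb8 in basal cells stood at 1.48, 6.28, 15.5, 19.5, 31.6 and 62.3 CPM in the same 6 libraries, and unlike H2-K1 was lower before puberty than in TEB.

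B2m had another course. In basal cells it stood at 99.6 CPM at E18.5, 74.5 CPM at postnatal day 5 and 106 CPM before puberty, and at 259, 338 and 269 CPM in TEB, ducts and the adult. In ML cells it was 56.7 and 71.2 CPM at postnatal day 5 and before puberty and 836 and 587 CPM in TEB and ducts. H2-D1 in basal cells went from 33.9 CPM at E18.5 to 383 CPM in the adult. In the E18.5 mammary library only 40.0% of cells received a class, 20.1% of all its cells being exactly at the required lead, and a further 31.1% were 1 marker short of it. Its basal and LP/alveolar classes may therefore hold other cells than the classes of the same name at later ages. The libraries differed in sorting and reporter allele, and age cannot be told apart from library.

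**Figure D5:**
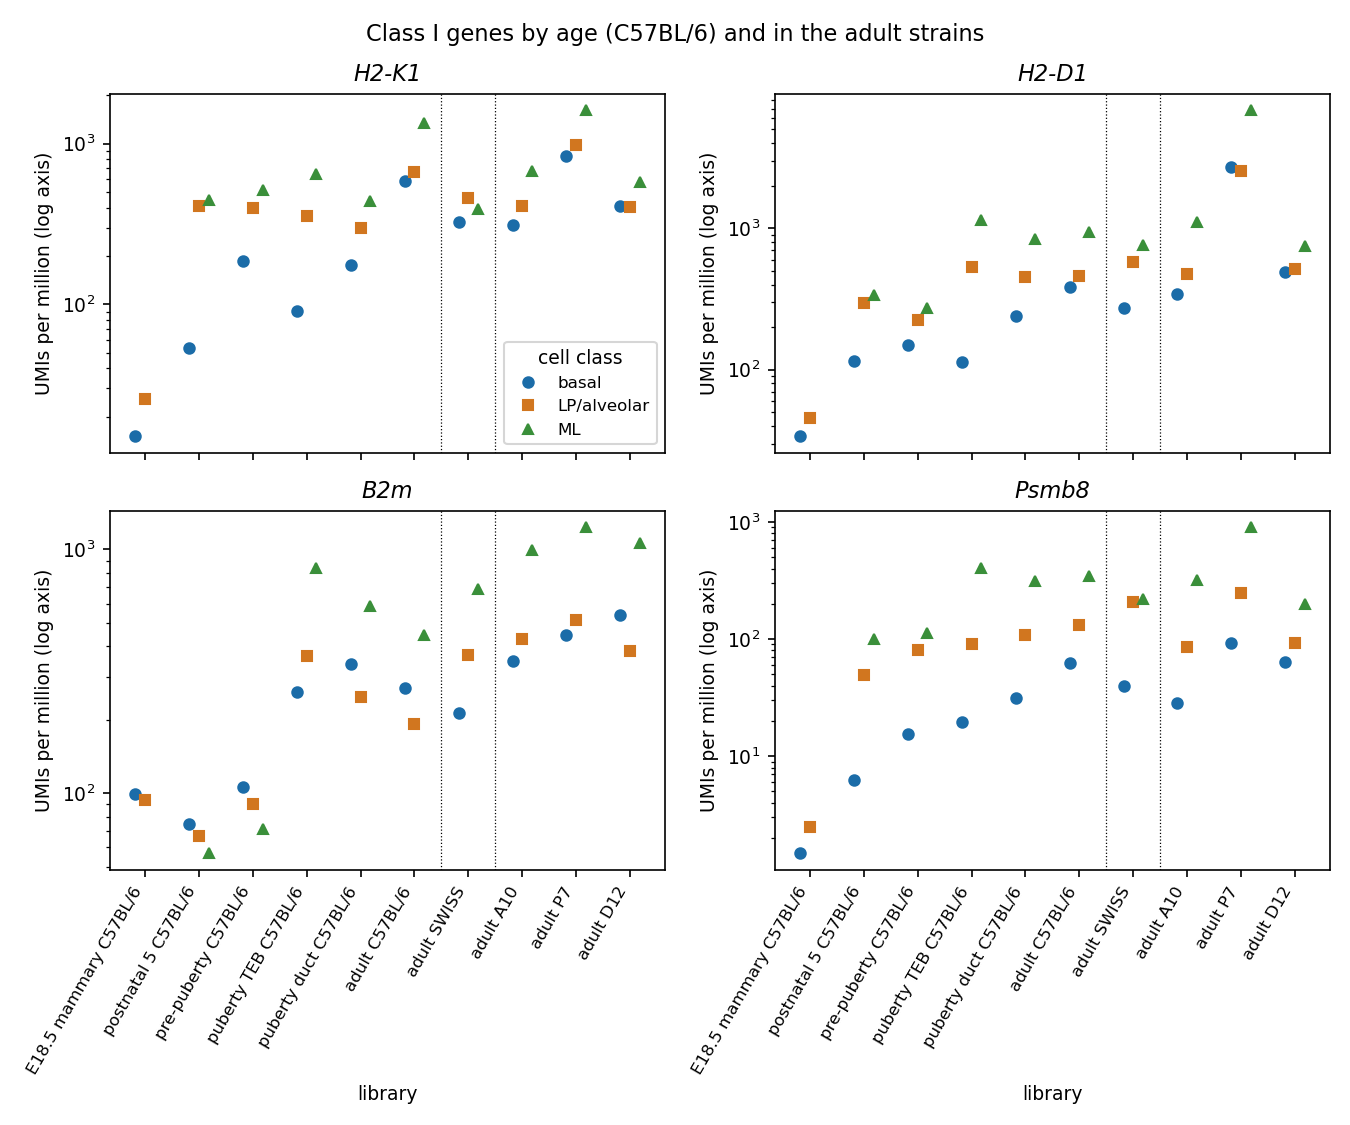
CPM (log y axis) of H2-K1, H2-D1, B2m and Psmb8 in basal, LP/alveolar and ML cells of the C57BL/6 libraries in order of age, of adult SWISS and of the 3 adult FVB/NJ libraries (x axis, groups parted by dotted lines). Each point is 1 library. H2-K1 and Psmb8 in basal and LP/alveolar cells are lowest at E18.5, and H2-D1 is highest in the adult FVB/NJ library P7.

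Among adults, strain comparisons rest on 1 library of C57BL/6 and 1 of SWISS, set beside the 3 FVB/NJ libraries. A member was counted as above or below where its 95% exact Poisson interval lay clear of the intervals of all 3 FVB/NJ libraries, which are wide for low genes in the shallow P7. The rule was run on the members alone, so no share of all genes stands beside the counts. Intervals also narrow with depth, and the SWISS library held 85865973 UMIs against 71021911 in C57BL/6. By class, 1 UMI was 0.0425 and 0.0504 CPM in SWISS basal and LP/alveolar cells, against 0.0790 and 0.0859 CPM in C57BL/6. In ML cells SWISS was the shallower of the pair, 1 UMI being 0.0357 CPM against 0.0292 CPM in C57BL/6. By this rule, for C57BL/6, of the 34 members 1 was above and 1 below in basal cells, 0 above and 2 below in LP/alveolar cells, and 1 above and 1 below in ML cells. B2m was below in all 3, at 269, 192 and 444 CPM (intervals 260 to 278, 184 to 200 and 437 to 451) against lowest FVB/NJ values of 350, 383 and 996 CPM. H2-Q7 in ML cells was above, at 57.3 CPM against at most 38.1 CPM. H2-Q10 in basal cells was above, at 3.72 CPM against at most 0.75 CPM. In ML cells H2-Q10, at 3.91 CPM against at most 1.32 CPM, was not counted, since its interval met one of the FVB/NJ intervals.

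By the same rule SWISS had 1 member above and 7 below in basal cells, 3 above and 4 below in LP/alveolar cells and 0 above and 9 below in ML cells. H2-DMb1, a chain of the class II exchange factor, was nearly undetected in SWISS epithelium: 6 UMIs in basal cells (0.25 CPM, against 3.95 to 30.1 CPM in FVB/NJ) and 0 in LP/alveolar and ML cells, where the floor of 3 counts was 0.151 and 0.107 CPM and FVB/NJ had at least 8.88 and 19.4 CPM. In SWISS immune cells H2-DMb1 was at 117 CPM (13 UMIs in 6 of 60 cells). H2-Q2 was likewise at 0.20 and 0.11 CPM in SWISS LP/alveolar and ML cells, against 13.0 to 44.1 CPM and 25.2 to 73.5 CPM in FVB/NJ. In LP/alveolar cells Tap1 (32.0 CPM), Psmb9 (56.8 CPM) and H2-Q6 (9.88 CPM) were above FVB/NJ. H2-T23 and Tapbp were below in every epithelial class, and B2m, H2-T22 and Tap2 in basal and ML cells. H2-D1 was below in basal cells, and H2-K1 and H2-DMa in ML cells. All reads had been aligned to mm10, the C57BL/6 genome, and the effect of sequence differences between strains on these counts was not tested.

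The FVB/NJ libraries themselves were not uniform. H2-D1 in P7 stood at 2715, 2537 and 6863 CPM in basal, LP/alveolar and ML cells, against 343 and 491, 477 and 518, and 1111 and 746 CPM in A10 and D12. P7 was also highest of the 3 for H2-K1, Tap2, Tapbp and Psmb8 in every epithelial class. It was the library with the fewest UMIs and the shorter barcodes, and the part of these in its levels was not tested.

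In the post-involution library, B2m lay above the adult FVB/NJ range in all 3 classes, at 808, 866 and 2964 CPM in basal, LP/alveolar and ML cells (intervals 790 to 826, 852 to 881 and 2939 to 2988). By the same rule on intervals no other member was above in any class, while H2-Q6 in LP/alveolar cells, at 5.45 CPM against at most 2.08 CPM in adult FVB/NJ, exceeded the adult values but not their intervals. In ML cells H2-T22 (32.4 CPM), Tap1 (13.4 CPM) and H2-DMa (5.80 CPM) lay below it. Psmb8 and Psmb9 in ML cells stood at 217 and 67.0 CPM, back within the adult range after their low values in pregnancy.

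Other genes of the pathway and its inducers were followed as lists. Of 23 genes of the interferon response, 3 rose and 0 fell in LP/alveolar cells at day 12.5, where 5.58% of all genes were called higher and 5.96% lower: Igtp by 2.17, Gbp3 by 1.97 and Bst2 by 1.20 on the log2 scale, with a list median of -0.22 against 0.04 over all genes. In ML cells 1 of 16 tested fell (Bst2, -2.47) and 0 rose, where 2.12% of all genes were called lower. In lactating LP/alveolar cells 5 of 23 rose and 0 fell from day 18.5, where 3.88% of all genes were called higher, among them Ifit1 by 4.45, Ifit3 by 4.40, the chemokine Cxcl9 by 4.43 and Cxcl10 by 3.88. Without the cells of 2 or more immune markers, 2 of the 23 were called, Ifit1 (4.21) and Cxcl9 (4.09). Of 13 other genes of antigen processing tested, Mr1, which presents vitamin metabolites, fell by 2.64 in LP/alveolar cells at day 12.5 (-2.64). Psme1, a proteasome activator subunit, fell by 1.69 in ML cells (-1.69). The shares of all genes called lower there were 5.96% and 2.12%, so these single calls are not read as a result about the list. Ctss, the cathepsin that trims the invariant chain, rose by 4.87 in LP/alveolar cells from day 18.5 to lactation, and by 4.06 without the immune-marked cells described above. Of 7 class II regulators and costimulatory genes, 3 were tested in LP/alveolar cells and none of these was called at any stage by edgeR; 1 had an unadjusted p under 0.05, at day 12.5 against adult, and DESeq2 counts were not made for this list.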

How the data were processed

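The deposited files were 10x Genomics matrices of UMI counts per gene and barcode. The authors produced them on mm10 with Cell Ranger, version 3.0.2 or 3.1.0 by the file headers and 3.1.0 by the processing notes of the submitters. No ambient RNA was subtracted here. Here cells were kept with at least 500 detected genes and within the upper limits on genes, UMIs and mitochondrial share that the study's methods set per library, which also served against doublets, and no doublet caller was run. A cell was given a class where 3 or more of the 10 markers of 1 list were detected, with a lead of 2 over the second list. This rule was set after the data were seen. Counts were summed per library and class with 20 or more cells and tested with edgeR 4.0.16 (quasi-likelihood F test, TMM, filterByExpr, R 4.3.3), and p-values were adjusted by Benjamini-Hochberg over all genes tested, with a threshold of 0.05. Stage fits took the 9 FVB/NJ libraries of adult, pregnancy and lactation in 1 class. Comparisons between classes had the library as a block, since the classes of a library come from the same mice. Log2 changes are of TMM-scaled counts and CPM values are not.

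Each library is 1 pool of mice, so p-values measure the spread between libraries, and single libraries carry exact Poisson intervals (95%) or a floor of 3 counts, both for counting error only. The members, marker lists and other gene lists were chosen with earlier results of these data known, so list counts are descriptions. All members were accounted for. The main chains, transporter, proteasome and class II genes were always named, others where called in an epithelial stage contrast or highest of their kind, and at most 4 per list of other genes. H2-M2 and H2-Ob in immune cells were named after their values were seen. Fold changes were not given for genes with 3 or fewer UMIs in a group, and member counts without such genes were added after the data were seen. Alternatives were DESeq2 1.42.0, no low-count filter, no TMM, milk genes left out, Leiden clusters (leidenalg 0.10.2) in place of the gate, a lead of 4, cells with at least 1000 genes, no block and each library left out. The scripts were tested on simulated counts. In a simulated LP/alveolar comparison of day 12.5 with adult, 56.1% of genes changed by 2 on the log2 scale were called. Of genes changed by 1 it was 6.12%, so a count of 0 called does not show that such changes were absent. The interaction tests, the immune fit and the removal of immune-marked cells were added after the data were seen. In the methods, adult C57BL/6, adult SWISS and pre-puberty libraries were processed together, and an FVB/NJ adult library with the post-involution library.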

Additional observations from a re-analysis of the deposited data

Results flagged for a closer look

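For 19 values the change of a member differed between cell classes of the same libraries, by edgeR's interaction test of class and stage with the library as a block (adjusted p under 0.05 over all genes tested).

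From adult to pregnancy day 12.5, the change in ML cells minus that in LP/alveolar cells was negative for 13 members on the log2 scale. Of all genes tested there, 15.3% were called (7.31% more positive and 8.0% more negative). In peptide supply it was -4.69 for Psmb9, -3.81 for Psmb8, -3.36 for Tap1, -3.03 for Tap2 and -1.20 for Tapbp. Among the class I heavy chains it was -4.09 for H2-Q7, -2.86 for H2-Q6, -2.49 for H2-K1, -2.28 for H2-T22, -2.25 for H2-D1, -2.0 for H2-T23 and -1.18 for H2-Q4. For H2-Ke6, the steroid dehydrogenase, it was -1.39. For B2m, the light chain, it was 1.17, the opposite sign. From day 12.5 to day 18.5 the same difference was -0.86 for B2m, where 2.47% of all genes were called.

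In lactation, the change in LP/alveolar cells minus that in basal cells was -1.58 for Psmb8 against day 18.5, where 3.12% of all genes were called. Against adults it was -1.20 for Psmb8, -1.46 for H2-T23 and -2.68 for H2-DMa, where 16.7% of all genes were called. These lactation calls are not read as a result about the members as a set. The H2-DMa value moved with the immune-marked basal cells of D6, and was -0.91 without the cells of 2 or more immune markers, no longer called. Without those cells H2-T23 was still called (-1.44), and Psmb8 missed the threshold at nearly the same differences, -1.10 against adults and -1.49 against day 18.5.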

How the results depend on the processing

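The limits of these results include the 2 libraries per stage of pregnancy and lactation. Further limits are the 98 to 176 ML cells of each pregnancy library and the 32 of lactation. The milk share of secretory cells and of lactation basal cells and the immune-marked cells of lactation are others. Leaving out 1 library of a pair leaves 1 sample, which is assumed to vary like the other groups. Of the alternative values of single genes, 1242 kept their direction and side of the threshold, 299 were no longer past it and 2 reversed: in LP/alveolar cells between lactation and adult, B2m was -0.53 and H2-Eb1 -0.013 without TMM scaling. In the interaction test at day 12.5, H2-K1, H2-D1, H2-Q7, H2-T22, Psmb8, Psmb9, Tap1 and Tap2 were called under every alternative run.

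The count of members called moved by more than 1.5 times as follows, and the cause was not tested. In basal cells at day 12.5, the 0 became 2 with DESeq2, 4 with no low-count filter, 1 with cluster classes, 1 with a lead of 4, 2 with at least 1000 genes and 2 without immune-marked cells. Between day 18.5 and lactation, the 5 became 3 with clusters, 2 with a lead of 4 and 2 without immune-marked cells. Between adult and lactation, the 7 became 2 with a lead of 4 and 4 without immune-marked cells. In LP/alveolar cells at day 12.5 the 8 became 14 with DESeq2 and 15 with no filter. Between days 12.5 and 18.5, the 1 became 2 with DESeq2, no filter, no TMM or clusters. Between day 18.5 and lactation, the 5 became 9 with no filter and 15 without TMM, and between adult and lactation the 11 became 21 without TMM. In ML cells at day 12.5 the 7 became 14 with no filter and 2 with a lead of 4. The 0 between days 12.5 and 18.5 became 1 with no filter, the 0 between day 18.5 and lactation 1 with DESeq2, and the 0 between adult and lactation 1 with no filter and 4 with clusters. The LP/alveolar minus basal change at day 12.5 (0) became 3 without immune-marked cells and 2 with a lead of 4, that from day 12.5 to 18.5 (0) became 3 without TMM, that from day 18.5 to lactation (1) became 0 without immune-marked cells, 0 with clusters and 16 without TMM, and that from adult to lactation (3) became 1 without immune-marked cells, 6 with clusters and 16 without TMM. The ML minus LP/alveolar change from day 12.5 to 18.5 (1) became 0 with a lead of 4, 0 with clusters and 8 without TMM.

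With 1 library left out at a time, the counts ranged in basal cells from 0 to 2 at day 12.5, 0 to 0 between days 12.5 and 18.5, 0 to 5 between day 18.5 and lactation and 3 to 10 between adult and lactation. In LP/alveolar cells the same ranges were 0 to 16, 0 to 4, 1 to 8 and 8 to 15, and in ML cells 0 to 13, 0 to 1, 0 to 0 and 0 to 0. In adults they were 3 to 13 for LP/alveolar against basal, 15 to 19 for ML against basal and 4 to 16 for ML against LP/alveolar, and 15 to 18 for immune against basal. For the LP/alveolar minus basal change they were 0 to 3, 0 to 3, 0 to 1 and 1 to 5, and for the ML minus LP/alveolar change 10 to 14 at day 12.5 and 0 to 3 after it.

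Without the library block that pairs the classes of a library, the adult counts went from 11 to 2 for LP/alveolar against basal, from 21 to 9 for ML against basal and from 15 to 3 for ML against LP/alveolar, and the immune count from 21 to 13. No paired analysis was possible between stages because their libraries share no replicate number. The planned fit of immune against basal cells within FVB/NJ was not run, since D6 alone held 20 or more immune cells there.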
